A study of Mus musculus with 6 samples.

Results

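Primordial germ cell-like cells (PGCLCs) made by switching on the transcription factor Nanog were set against mouse embryonic stem cells (mESCs), with 2 arrays in each group and 4 of the 6 arrays of the series. Every gene-named probe of the Illumina mouse BeadChip with a detection p below 0.01 on both arrays of either group was a member. These were 8681 of 45281 probes, and they read 6403 genes, each taken from its brightest probe. All 6 samples were male 129 x MF1 mouse cells carrying a Nanog transgene. The Nanog PGCLCs were collected on day 4, after epiblast-like cells had been moved to low-binding U-bottom wells in GK15 medium with doxycycline at 0.7 µg/ml, which turned the transgene on. A second kind of PGCLC, used only where a difference from the Nanog PGCLCs was tested, was made over the same 4 days in GK15 with a cytokine mixture in place of doxycycline: 500 ng/ml of BMP4 and of BMP8A, 100 ng/ml of SCF, 50 ng/ml of EGF and 1000 U/ml of LIF (cytokine PGCLCs). The mESCs grew on fibronectin in N2B27 medium with the GSK3 inhibitor CHIR99021 at 3 µM, the MEK inhibitor PD0325901 at 1 µM and LIF at 1000 U/ml, a mixture called 2i LIF. The inhibitors and LIF are listed for the mESCs and not for the Nanog PGCLCs, so Nanog induction and the change of medium and culture form cannot be told apart in this comparison. The sources used here do not say whether the PGCLCs were sorted before RNA was taken.

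Primordial germ cells are the embryonic founders of sperm and eggs. In the mouse embryo they arise from the epiblast under BMP signals, through the transcription factors Prdm1, Prdm14 and Tfap2c, and they keep or regain much of the pluripotency network while they shut down somatic genes and remodel DNA and histone methylation. In 2i LIF, mESCs are held in a naive state in which ERK signalling is blocked, β-catenin is stabilised and STAT3 is active. Several germline genes, among them those for meiotic cohesin, are known in mESCs to be kept silent by a Polycomb-related complex that holds E2f6 and Pcgf6.

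Between 8788 and 10021 probes were detected per array, 9896 and 10021 in Nanog PGCLCs and 9220 and 8788 in mESCs. Across the tested probes, replicate arrays correlated at r = 0.994 in Nanog PGCLCs and 0.993 in mESCs, and arrays of the different groups at 0.916 to 0.918. Since no label says that replicates are separate cultures, a p-value here reflects the array-to-array spread alone, which may be technical, and 2 arrays a group limit the precision of every value. Of the 8 stem cell markers, all were detected on both mESC arrays, but Klf4, on neither Nanog PGCLC array, had entered through that detection. Of the 7 germ cell markers, 6 were tested, and all of those were detected on both Nanog PGCLC arrays. Nanos3 and Prdm14, on 1 of 2 mESC arrays, had entered through that detection. Called higher than in mESCs were 5 of the 6, against 29.1% of all tested genes. Prdm1 had no named probe among those tested and is not reported.

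Nanog itself was read by a pair of probes that did not move together. The brighter probe gave a normalized log2 intensity of 12.04 and 12.24 in Nanog PGCLCs, against 12.33 and 12.47 in mESCs, a difference of -0.26 ± 0.10 (SE) that was not called (limma adjusted p = 0.0636) although 6 of 16 alternative settings called it lower. Under 3 others, which read the second probe or the mean of both, the gene was called higher (0.44 to 1.18). The other probe gave 12.72 and 12.59 in Nanog PGCLCs, against 11.48 and 11.55 in mESCs, a change of 1.14 ± 0.10 (adjusted p = 3.32e-05). Which of them can read the transgene is not known from the files, and the arrays of the groups did not overlap on either probe.

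Differences were tested with limma on log2 intensities and called at a Benjamini-Hochberg adjusted p below 0.05, over all probes that entered the fit. Of the 6403 genes, 3588 were called (56.0%), 1862 of them higher (29.1%) and 1726 lower (27.0%) in Nanog PGCLCs than in mESCs. A change of at least 2-fold was called for 453 higher genes (7.07%) and 241 lower genes (3.76%). The arrays of the groups did not overlap for 5123 genes (80.0%), so a lack of overlap is common here and is read against that share. Among the 5279 genes detected on all 4 arrays, 1264 were called higher (23.9%) and 1479 lower (28.0%), which is the fairer background for a list, since a gene that entered through its bright group alone had to differ. The balance of calls depended on scaling: after quantile normalization 51.9% of calls were higher, and after scaling each array by its median only, 2690 genes were higher and 835 lower (76.3% higher), with the median of all genes at 0.22 on the log2 scale instead of 0.0022. In bulk samples such as these, fewer cells of a type and less RNA per cell cannot be told apart.

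**Figure D1:**
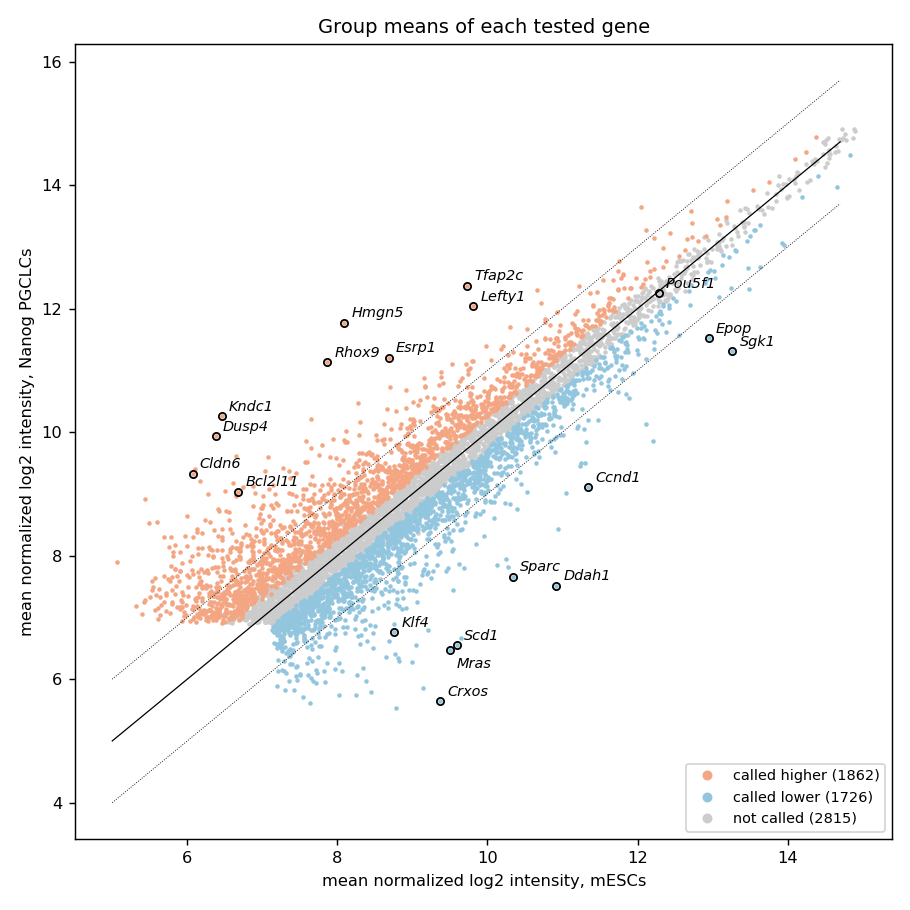
Mean normalized log2 intensity of each of the 6403 genes in Nanog PGCLCs (vertical axis) and in mESCs (horizontal axis), 2 arrays each, with genes called higher in orange, called lower in light blue and not called in grey; the dotted lines mark 2-fold. Hmgn5, Tfap2c and Rhox9 lie far above the diagonal, Ddah1, Sparc and Crxos far below it, and Pou5f1 on it.

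Genes that crossed the detection limit were many. On both Nanog PGCLC arrays and on neither mESC array, 565 genes were detected, 473 of them called higher; on both mESC arrays and on neither Nanog PGCLC array, 149 were detected, all called lower. For such a gene the mean of the bright group is set against the lowest signal detected on each array of the other group (6.88 to 7.16 on the log2 scale), and the ratio is written as at least N-fold. By that bound the difference was 2-fold or more for 72 higher and 34 lower genes. The highest bounds were at least 8.88-fold for Kndc1, at least 7.12-fold for Dusp4, a phosphatase that switches off ERK, and at least 5.71-fold for Pdzk1, a scaffold for membrane transporters. Among lower genes they were at least 6.78-fold for Abcb1b, a drug efflux pump, at least 6.51-fold for Scd1, a fatty acid desaturase, and at least 6.09-fold for Mras, a small GTPase of the Ras family. All 6 had an adjusted p of at most 9.02e-07.

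Among genes measured on both sides, the largest increase was that of Hmgn5, an X-linked protein that binds nucleosomes and loosens linker histone. It reached 11.78 and 11.76 in Nanog PGCLCs, against 8.08 and 8.10 in mESCs, a 12.8-fold difference (log2 fold change 3.68 ± 0.09, limma adjusted p = 2.26e-07). Next came Rhox9, a reproductive homeobox gene of the X chromosome (9.59-fold), Tfap2c (6.27-fold), Cotl1, an actin-binding protein (5.93-fold), Esrp1, an epithelial splicing regulator (5.72-fold), and Skil, a repressor of SMAD signalling (4.84-fold). The largest decrease was that of Ddah1, which breaks down methylated arginine: 7.47 and 7.56 in Nanog PGCLCs, against 10.96 and 10.88 in mESCs, or 10.6-fold lower. It was followed by Sparc, a matrix protein (6.39-fold lower), Ccn2, a secreted target of YAP (5.73-fold lower), Gsto1, a glutathione transferase (5.49-fold lower), and Bcat1, which breaks down branched-chain amino acids (5.06-fold lower). Only called genes whose arrays did not overlap between the groups were ranked here, and 80.0% of all tested genes showed no such overlap.

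Early germ cell regulators were mostly higher in Nanog PGCLCs. Of 16 listed genes 11 were tested, of which 7 were higher and 2 lower (among the 9 detected on all 4 arrays, 5 and 2). Tfap2c, a factor without which mouse germ cells do not form, stood at 12.33 and 12.41 in Nanog PGCLCs, against 9.74 and 9.70 in mESCs (log2 fold change 2.65 ± 0.09, adjusted p = 5.61e-07), while its other probes gave 2.80 and 1.06. Nanos3, which binds RNA and keeps young germ cells alive, stood at 8.90 and 9.02 in Nanog PGCLCs, against 7.06 and 6.96 in mESCs, where it was detected on 1 of 2 arrays (1.95 ± 0.10, adjusted p = 1.89e-06). In both genes the gap between the groups was wider than the spread between replicates. Dnd1, an RNA-binding partner of Nanos proteins, had 8.63 and 8.63 in Nanog PGCLCs, against 7.66 and 7.75 in mESCs (0.92 ± 0.09). Dppa3, also called Stella, a chromatin factor of early germ cells and oocytes, had 11.66 and 11.75 in Nanog PGCLCs, against 10.36 and 10.25 in mESCs (1.40 ± 0.09). Elavl2, a neuronal and germline RNA-binding protein, had 10.10 and 9.99 in Nanog PGCLCs, against 8.66 and 8.77 in mESCs (1.33 ± 0.11). These 3 genes were already clearly detected in mESCs. Prdm14, which represses somatic genes and supports both naive stem cells and germ cells, had 7.84 and 7.69 in Nanog PGCLCs, against 7.44 and 7.07 in mESCs, where 1 of 2 arrays detected it. Its change of 0.51 ± 0.13 (adjusted p = 0.00972) was no longer called without mESC replicate 2 (0.33) or without Nanog PGCLC replicate 1 (0.44).

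The members that went the other way were Lin28a, a let-7 blocker used in germ cell formation, and Nr5a2, a nuclear receptor. Lin28a had 7.25 and 7.31 in Nanog PGCLCs, against 8.33 and 8.22 in mESCs (-0.99 ± 0.10, adjusted p = 6.10e-05). Nr5a2 fell by 0.42 on the log2 scale, a call lost under median scaling and without mESC replicate 2 or Nanog PGCLC replicate 2. Kit, the SCF receptor, had 10.80 and 10.63 in Nanog PGCLCs, against 10.76 and 10.69 in mESCs, and the arrays overlapped. Of the 8 tested surface markers of germ cells, 5 were higher and 1 lower (4 and 1 of the 7 detected on all 4 arrays). Ifitm1, Ifitm2 and Ifitm3, interferon-induced membrane proteins, rose by 0.86, 0.63 and 0.28. Alkaline phosphatase Alpl rose by 0.58, while the tetraspanin Cd9 fell by 0.39. Pecam1, also a marker of endothelium and blood, was called higher too, and was detected on both Nanog PGCLC arrays and on neither mESC array. The calls for Ifitm3 and Cd9 were among those lost when single arrays were left out (any of the 4 arrays for Ifitm3; mESC replicate 1 or either Nanog PGCLC array for Cd9). Of the Dppa genes, Dppa3 and Dppa4 were higher (Dppa4 by 0.92 ± 0.09), and the other members, Dppa2 (0.36) and Dppa5a (0.06), named here to complete the family, were not called.

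**Figure D2:**
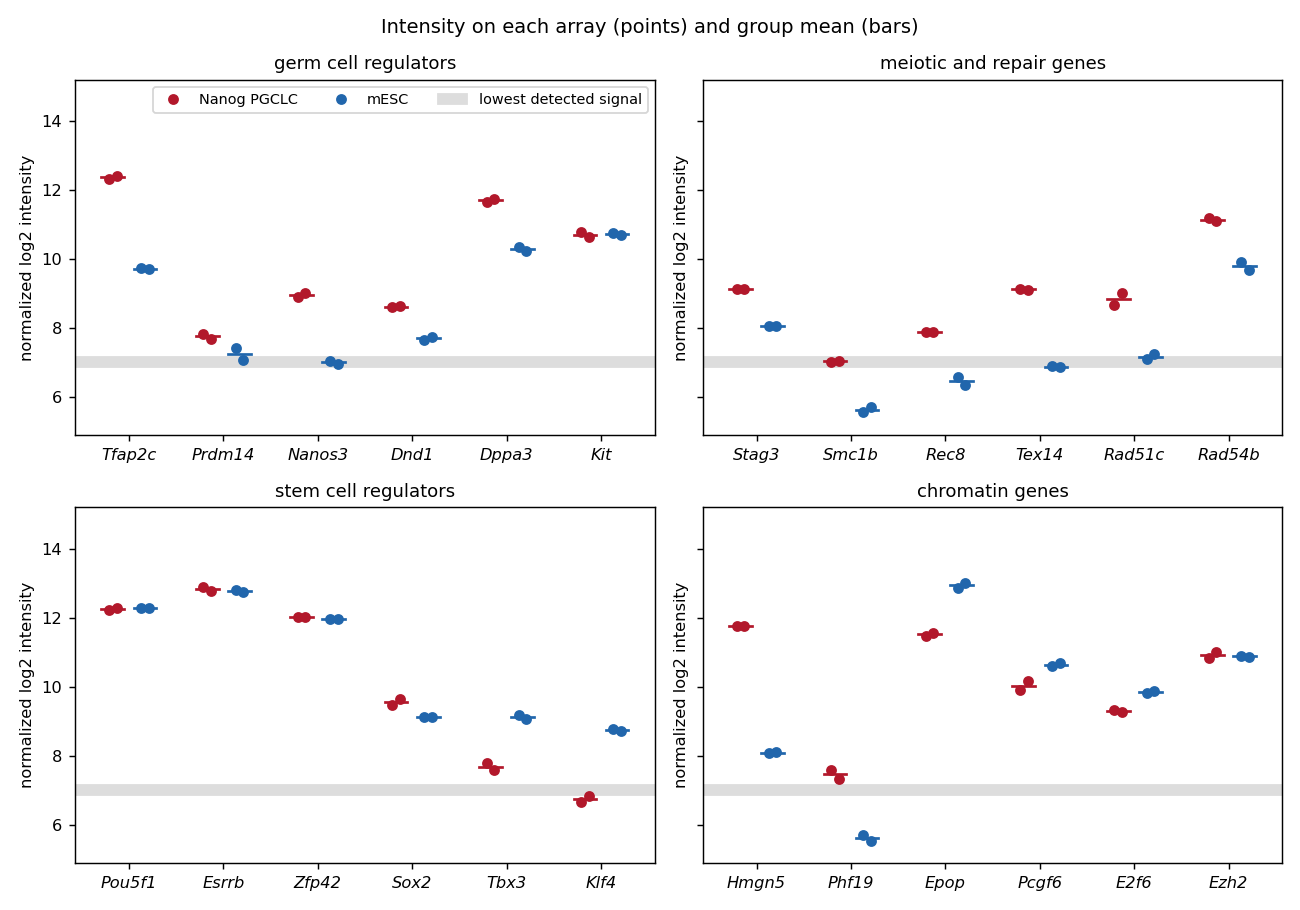
Normalized log2 intensity on each array (points; Nanog PGCLCs in red to the left, mESCs in blue to the right) with group means (bars) for 24 genes in 4 roles; the grey band is the range of the lowest detected signal over the 4 arrays. Tfap2c, Hmgn5 and the meiotic genes separate widely, Pou5f1, Esrrb and Zfp42 lie level, and Klf4 and Phf19 lie above the band in 1 group only.

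Genes of DNA repair and meiosis-linked repair were called higher more often than genes at large. Of 62 listed genes 39 were tested, and 22 were higher and 4 lower, with a median log2 fold change of 0.45 (0.30 with undetected genes set at their bound). Of the 31 members detected on all 4 arrays, 14 were higher and 4 lower, with a median of 0.28. Under median scaling 28 were higher and 2 lower, and the list median lay 0.45 above that of all genes. The meiotic cohesin subunits, which hold sister chromatids together in meiosis, were all 3 higher. The promoter windows of these genes, and of a pair of genes that start back to back, are shown because their members moved together and because the repressor complex named above is known to bind such promoters through E2F6. Capitals mark the letters TCCCGC, the core of the E2F motif, searched on both strands (GCGGGA where it lies on the opposite strand) in RefSeq windows of the GRCm38.p6 build that run from 250 bases before to 50 after the gene start, printed 5′ to 3′ on the gene's own strand. Stag3, chr5:138280259-138280558, plus strand; Smc1b, chr15:85131908-85132207, minus strand; Rec8, chr14:55617916-55618215, plus strand; Tex14, chr11:87404815-87405114, plus strand; Rad51c, chr11:87404905-87405204, minus strand.
Stag3: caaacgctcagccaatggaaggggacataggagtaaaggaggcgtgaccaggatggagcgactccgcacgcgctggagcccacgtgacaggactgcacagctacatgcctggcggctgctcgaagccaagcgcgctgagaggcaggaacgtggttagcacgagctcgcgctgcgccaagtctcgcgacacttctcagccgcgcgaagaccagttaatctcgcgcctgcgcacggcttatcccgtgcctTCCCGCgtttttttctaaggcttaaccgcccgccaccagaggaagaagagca
Smc1b: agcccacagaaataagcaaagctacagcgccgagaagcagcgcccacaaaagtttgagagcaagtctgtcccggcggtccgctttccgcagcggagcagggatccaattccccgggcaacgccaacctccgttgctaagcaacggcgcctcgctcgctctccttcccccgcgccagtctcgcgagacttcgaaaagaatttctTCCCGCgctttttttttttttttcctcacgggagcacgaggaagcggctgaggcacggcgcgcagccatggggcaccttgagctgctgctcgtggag
Rec8: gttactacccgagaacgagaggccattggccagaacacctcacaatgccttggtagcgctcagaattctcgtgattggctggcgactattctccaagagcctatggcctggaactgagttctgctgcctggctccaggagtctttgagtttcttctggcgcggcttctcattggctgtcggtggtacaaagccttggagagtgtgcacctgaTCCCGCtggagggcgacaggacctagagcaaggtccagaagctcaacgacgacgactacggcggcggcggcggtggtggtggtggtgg
Tex14: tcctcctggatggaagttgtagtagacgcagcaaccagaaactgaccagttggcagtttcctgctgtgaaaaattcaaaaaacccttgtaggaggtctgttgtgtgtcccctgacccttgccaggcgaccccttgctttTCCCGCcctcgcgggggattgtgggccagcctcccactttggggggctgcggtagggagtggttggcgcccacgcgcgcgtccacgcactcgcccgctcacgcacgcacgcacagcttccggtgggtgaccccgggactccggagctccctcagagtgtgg
Rad51c: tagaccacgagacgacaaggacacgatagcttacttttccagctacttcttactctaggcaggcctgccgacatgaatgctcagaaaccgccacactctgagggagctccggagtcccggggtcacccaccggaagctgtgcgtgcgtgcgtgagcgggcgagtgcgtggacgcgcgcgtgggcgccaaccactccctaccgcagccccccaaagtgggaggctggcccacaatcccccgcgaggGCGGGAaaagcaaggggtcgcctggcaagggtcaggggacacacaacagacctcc

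Each of these windows holds the motif 1 time. It begins at -2 from the start site in Stag3, -47 in Smc1b, -38 in Rec8, -111 in Tex14 and -5 in Rad51c. In the windows shown, the start sites of Tex14 and Rad51c lie 111 bases apart and point away from each other. Their windows overlap by 210 bases and share 1 and the same copy. Rad51c has 2 windows, and the one printed was picked because it overlaps most with that of Tex14. The Stag3 window also holds 1 copy of the E-box CACGTG, the palindromic letters bound by MAX-type factors. TCCCGC is found in at least 1 window of 22.1% of all 27025 genes with a window, and of 41.2% of the 5272 tested genes with a window. These 27025 genes have 32851 windows, so a gene with several had more chances to hold the motif. Among tested repair genes with a window it is found in 62.9% of all 35, in 66.7% of the 18 called higher and in 50% of the 4 called lower. For comparison it is found in 30.4% of 56 tested ribosome biogenesis genes. The match is a description of the letters, binding was not measured here, and the 5 windows were chosen with the values of their genes known.

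Stag3 had 9.12 and 9.14 in Nanog PGCLCs, against 8.06 and 8.05 in mESCs, a 2.10-fold difference (log2 fold change 1.07 ± 0.09, adjusted p = 2.26e-05). Rec8, the meiotic kleisin that closes the cohesin ring, had 7.88 and 7.90 in Nanog PGCLCs, against 6.59 and 6.35 in mESCs, where neither array detected it, and was at least 1.73-fold higher (adjusted p = 2.19e-05). Smc1b, a meiotic SMC subunit, had 7.03 and 7.06 in Nanog PGCLCs, against 5.57 and 5.71 in mESCs, where it was not detected. It was called higher (adjusted p = 9.27e-06), but no fold is given because its bound is under 1, and its level in Nanog PGCLCs sits at the edge of detection. Tex14, needed for the bridges between dividing germ cells, had 9.14 and 9.11 in Nanog PGCLCs, against 6.90 and 6.87 in mESCs, at least 4.05-fold higher (adjusted p = 9.05e-07). Rad51c, a homologous recombination gene that starts next to it, had 8.67 and 9.02 in Nanog PGCLCs, against 7.11 and 7.25 in mESCs (1.67 ± 0.14, adjusted p = 2.52e-05), and its other probe gave 1.07. Rad54b, a motor protein of homologous recombination, had 11.19 and 11.10 in Nanog PGCLCs, against 9.92 and 9.68 in mESCs (1.35 ± 0.11). In each of these 6 genes both Nanog PGCLC arrays lay above both mESC arrays. The damage sensor Xpc was at least 2.03-fold higher. Against this direction went the base excision enzyme Apex1 (8.56 and 8.82 in Nanog PGCLCs, against 9.75 and 9.95 in mESCs, -1.16 ± 0.13) and the nuclease subunit Ercc1 (-0.70 ± 0.10). Of 64 tested mitosis genes 17 were higher (26.6%) and 11 lower (17.2%), against 29.1% and 27.0% of all tested genes. Under median scaling 31 mitosis genes were higher and 4 lower.

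Unlike the meiotic genes above, the tested genes of a second germline list were not called higher. Of 31 listed genes of later germ cells and germline genome defence 9 were tested, of which 0 were called higher and 4 lower (median -0.22, 0.08 under median scaling, where 2 were higher and 3 lower). The list covers factors that guard the germline against transposons, and they are also active in mESCs. Tex19.1, such a factor, had 9.54 and 9.38 in Nanog PGCLCs, against 11.26 and 11.22 in mESCs (-1.78 ± 0.10, adjusted p = 3.05e-06). Its neighbour gene Tex19.2 was at least 1.92-fold lower, and Tdrd12, a piRNA pathway protein, fell by 1.06 on the log2 scale. Dazl, which licenses germ cells for later development and was chosen after its values were seen, was at 0.03 and not called, and Ddx4, the Vasa helicase, fell by 0.34, a call lost under 6 alternatives, among them median scaling and leaving out either mESC array or Nanog PGCLC replicate 1. X-linked genes went in both directions, within the Rhox family as well. Rhox9 had 11.25 and 11.01 in Nanog PGCLCs, against 7.68 and 8.05 in mESCs, and Rhox6 had 9.08 and 8.93 in Nanog PGCLCs, against 7.28 and 7.07 in mESCs (1.83 ± 0.12, detected on 1 of 2 mESC arrays), while Rhox13 was at least 1.38-fold lower and Rhox5, also named to complete the family, was not called (-0.15). Of 15 tested X-linked stem cell and germline antigens 10 were lower and 2 higher (7 and 2 under median scaling). Xlr4a, of a clustered X-linked family, had 8.93 and 9.08 in Nanog PGCLCs, against 11.03 and 11.07 in mESCs (-2.04 ± 0.10). Tceal8, an elongation factor-like gene, fell by 1.21, and Bex2 and Bex4, small brain-expressed X-linked proteins, by 0.67 and 0.58.

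Chromatin regulators moved individually more than as groups. Of 25 tested Polycomb genes 6 were higher and 7 lower (10 and 3 under median scaling), shares close to those of all genes. Phf19, a reader that guides PRC2 to its targets, had 7.60 and 7.33 in Nanog PGCLCs, against 5.70 and 5.55 in mESCs, at least 1.28-fold higher. Epop, a PRC2 partner found in stem cells, had 11.48 and 11.56 in Nanog PGCLCs, against 12.88 and 13.02 in mESCs (-1.42 ± 0.10, adjusted p = 1.01e-05). The catalytic subunit Ezh2 was at 0.04 and not called. Of the complex that silences germline genes, Pcgf6 had 9.92 and 10.16 in Nanog PGCLCs, against 10.60 and 10.68 in mESCs (-0.60 ± 0.11, adjusted p = 0.00165), and E2f6 had 9.32 and 9.28 in Nanog PGCLCs, against 9.82 and 9.90 in mESCs (-0.56 ± 0.09, adjusted p = 0.000949), with its other probes at -0.55 and -0.65. Both calls held under every one of the 16 alternatives. Whether these levels bear on the meiotic genes was not tested. Phc1, a subunit of canonical PRC1, rose by 0.87, and Kdm2b, which brings PRC1 to CpG islands, fell by 0.57, a call lost under median scaling.

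Genes of DNA methylation split as well, with 5 of 16 higher and 6 lower (7 and 5 under median scaling), against 29.1% and 27.0% of all genes. The de novo methylation cofactor Dnmt3l had 10.87 and 10.85 in Nanog PGCLCs, against 11.82 and 11.78 in mESCs (-0.94 ± 0.09), and the de novo enzyme Dnmt3b fell by 0.47. The maintenance enzyme Dnmt1 rose by 0.45, while its recruiter Uhrf1 had 12.13 and 11.99 in Nanog PGCLCs, against 12.36 and 12.48 in mESCs (-0.36 ± 0.10), a call lost without mESC replicate 2 or Nanog PGCLC replicate 2. Uhrf2, a relative of Uhrf1, rose by 0.69. Tet1, an enzyme that oxidises methylcytosine, was at -0.27 ± 0.10, a call that 8 of 16 alternatives did not keep. The stress genes Gadd45a and Gadd45b, which have been linked to demethylation, went opposite ways: Gadd45a rose by 1.38 ± 0.09 and Gadd45b was at least 2.11-fold lower.

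Of 17 tested genes of core pluripotency 4 were higher (23.5%) and 6 lower (35.3%), against 29.1% and 27.0% of all tested genes. Among the 16 detected on all 4 arrays 3 were higher and 6 lower, and under median scaling 5 and 6 of the 17. Part of the naive network was lower. The lower core genes were Lin28a, described above, the chromatin remodeller Chd1 (-0.95), the zinc finger gene Zscan10 (-0.74), the F-box gene Fbxo15 (-0.65), the silencing cofactor Trim28 (-0.54) and the growth factor gene Gdf3 (-0.54), and among the higher ones was the chromatin-associated factor Utf1 (0.67). Pou5f1, the central pluripotency factor, had 12.21 and 12.28 in Nanog PGCLCs, against 12.29 and 12.27 in mESCs. Esrrb, a nuclear receptor of the naive network, had 12.89 and 12.78 in Nanog PGCLCs, against 12.82 and 12.74 in mESCs. For these genes and Zfp42 (12.02 and 12.02 in Nanog PGCLCs, against 11.97 and 11.97 in mESCs) the log2 differences were -0.03 ± 0.10, 0.06 ± 0.09 and 0.05 ± 0.13, none called, which does not show that they are equal. Of 21 tested naive genes 10 were lower and 6 higher (median -0.11, 0.03 under median scaling). Klf4, a target of LIF and STAT3, had 6.68 and 6.84 in Nanog PGCLCs, where neither array detected it, against 8.79 and 8.73 in mESCs, at least 3.65-fold lower (adjusted p = 5.75e-06). Tbx3, a T-box factor downstream of LIF, had 7.78 and 7.58 in Nanog PGCLCs, against 9.18 and 9.08 in mESCs (-1.45 ± 0.11). Stat3 itself had 7.46 and 7.63 in Nanog PGCLCs, against 9.09 and 8.71 in mESCs (-1.36 ± 0.17, adjusted p = 0.000202). The naive factors Tfcp2l1 and Klf5 fell by 0.98 and 0.57. Sox2, the partner of Pou5f1, was higher by 0.44 ± 0.10 and Klf2 by 0.47 ± 0.10.

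Targets of WNT, ERK and LIF signalling differed between the groups. All 4 tested targets of WNT signalling were lower, 2 of them undetected in Nanog PGCLCs: the transcription factor Sp5 (5.70 and 5.38 in Nanog PGCLCs, against 8.84 and 8.72 in mESCs, at least 3.72-fold lower) and the feedback inhibitor Axin2 (at least 1.79-fold lower). The WNT deacylase Notum fell by 1.46 and the cyclin Ccnd1 by 2.24. Of the other 16 listed targets no probe was tested. Of 16 tested genes of the FGF and ERK axis 7 were higher and 3 lower, and of the 11 detected on all 4 arrays 3 were higher and 2 lower (median -0.04). Among the lower ones were Ccnd1 and the small GTPase Mras, at least 6.09-fold lower. The feedback phosphatases Dusp4 (9.95 and 9.92 in Nanog PGCLCs, against 6.50 and 6.26 in mESCs) and Dusp6 (10.21 and 10.08 in Nanog PGCLCs, against 8.96 and 9.07 in mESCs) and the immediate early gene Egr1 (7.95 and 7.87 in Nanog PGCLCs, against 5.94 and 6.14 in mESCs, at least 1.75-fold) were higher. For LIF signalling, the feedback inhibitor Socs3 had 7.76 and 7.80 in Nanog PGCLCs, against 8.69 and 8.81 in mESCs (-0.97 ± 0.09), the LIF receptor Lifr was at least 1.93-fold lower and the adhesion protein Icam1 at least 3.47-fold lower, whereas Socs2 rose by 1.38 and the transcription factor Cebpd by 1.71. The mESC medium stabilises β-catenin, blocks MEK and holds LIF, so the medium and the Nanog induction cannot be told apart for these genes.

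Genes of the primed epiblast and the Nodal pathway were also higher in part. Of 13 tested members 9 were higher and 3 lower, but 6 of them entered through Nanog PGCLCs alone, and of the 7 detected on all 4 arrays 3 were higher and 3 lower (median -0.13). Lefty1, a secreted Nodal inhibitor, had 12.05 and 12.02 in Nanog PGCLCs, against 9.79 and 9.83 in mESCs (2.23 ± 0.09, adjusted p = 8.75e-07), and Lefty2 had 11.80 and 11.55 in Nanog PGCLCs, against 10.63 and 10.41 in mESCs (1.15 ± 0.12). Gdf1, a Nodal co-ligand, was at least 1.87-fold higher. Otx2, a factor of the primed epiblast that opposes germ cell entry in the mouse, had 8.70 and 8.71 in Nanog PGCLCs, against 7.94 and 8.03 in mESCs (0.72 ± 0.10). Fgf5, the classic epiblast marker, had 7.10 and 7.23 in Nanog PGCLCs, against 6.60 and 6.86 in mESCs, where it was undetected, a bound of 1.04-fold, and the call was lost without mESC replicate 1, without Nanog PGCLC replicate 2 and in the authors' value table.

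Adhesion and cytoskeleton genes changed in separate ways. Of 25 tested claudin, cadherin and epithelial genes 13 were higher and 5 lower, but 10 entered through Nanog PGCLCs alone, and of the 14 detected on all 4 arrays 4 were higher and 4 lower (median -0.07). Cldn6, a tight junction protein of early epithelia, had 9.46 and 9.19 in Nanog PGCLCs, against 6.22 and 5.92 in mESCs (at least 4.67-fold, adjusted p = 2.41e-06). P-cadherin Cdh3 was at least 3.07-fold and Cldn3 at least 2.10-fold higher, and Cldn4 rose by 1.27. Rab25, an epithelial recycling GTPase, was called higher on both of its probes, by 0.64 on the one that mESCs detected. E-cadherin Cdh1, chosen after its values were seen, was at -0.24 and not called, and the keratins Krt42 and Krt17 fell by 1.43 and 1.02 (Krt17 was detected on 1 of 2 Nanog PGCLC arrays). Of 69 tested actin, annexin and S100 genes 30 were lower and 16 higher (median -0.20, but 0.02 under median scaling, with 24 lower and 25 higher), and of the 54 detected on all 4 arrays 27 were lower and 7 higher. Smooth muscle actin Acta2 had 6.78 and 6.99 in Nanog PGCLCs, against 8.66 and 8.84 in mESCs (-1.86 ± 0.17), and was detected on 1 of 2 Nanog PGCLC arrays. The myosin light chain Myl9 was at least 2.85-fold lower, and the focal adhesion protein Zyx and the actin-severing protein Cfl1 fell by 0.99 and 1.22. Capg, which caps actin filaments, went up by 2.01. In the matrix, Sparc had 7.68 and 7.65 in Nanog PGCLCs, against 10.34 and 10.34 in mESCs (-2.67 ± 0.09), and the intermediate filament Vim was at least 4.29-fold lower. Of 8 tested YAP and TEAD genes 5 were lower and 2 higher, with Ccn2 at 8.56 and 8.29 in Nanog PGCLCs, against 10.91 and 10.98 in mESCs, and the YAP partner Wwtr1 lower by 1.43 ± 0.16 (log2 fold change -1.43).

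Several lists of growth and biosynthesis genes held mostly lower calls in Nanog PGCLCs, largely by small steps, but others did not. Fatty acid synthesis and desaturation had 4 of 15 tested genes higher (26.7%) and 5 lower (33.3%), against 29.1% and 27.0% of all tested genes. Under median scaling 9 were higher and 3 lower. Among 54 tested cytosolic ribosomal proteins 7 were higher and 3 lower (9 and 2 under median scaling). Of 63 tested genes of ribosome biogenesis 31 were lower and 1 higher, with a median of -0.26. Under median scaling 10 were lower and 3 higher, and the list median lay 0.36 below that of all genes. Utp6, of the machine that processes ribosomal RNA, had 8.72 and 8.68 in Nanog PGCLCs, against 9.57 and 9.60 in mESCs (-0.89 ± 0.13, adjusted p = 0.000507), and Ubtf, which drives transcription of ribosomal RNA genes, fell by 0.72 and Nip7, an assembly factor, by 0.77. No member changed 2-fold, so the list is marked by the number of small decreases. Of 27 tested nucleotide synthesis genes 15 were lower and 2 higher (13 and 0 of the 23 detected on all 4 arrays, and 9 and 4 under median scaling). Impdh1 and Gmps, successive steps to GMP, were at least 2.14-fold lower and lower by 1.29 ± 0.17 on the log2 scale (fold change -1.29; detected on 1 of 2 Nanog PGCLC arrays), and Ppat, the first step of purine synthesis, fell by 0.85. Of 22 tested genes of amino acid synthesis and ATF4 targets 14 were lower and 1 higher (9 and 2 under median scaling). Asparagine synthetase Asns had 12.29 and 12.38 in Nanog PGCLCs, against 13.14 and 13.34 in mESCs (-0.90 ± 0.10), and the serine pathway enzymes Psat1 and Shmt2 fell by 0.71 and 0.86. The pseudokinase Trib3 was the 1 higher member (0.59 ± 0.13). Of 17 tested genes of cholesterol synthesis 11 were lower and 1 higher (8 and 1 under median scaling). Fdps, which makes farnesyl diphosphate, had 10.67 and 10.58 in Nanog PGCLCs, against 11.83 and 11.85 in mESCs (-1.22 ± 0.09), and Insig1, which senses sterols, fell by 1.26. The higher member was Npc1 (0.36 ± 0.11), which exports cholesterol from lysosomes.

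**Figure D3:**
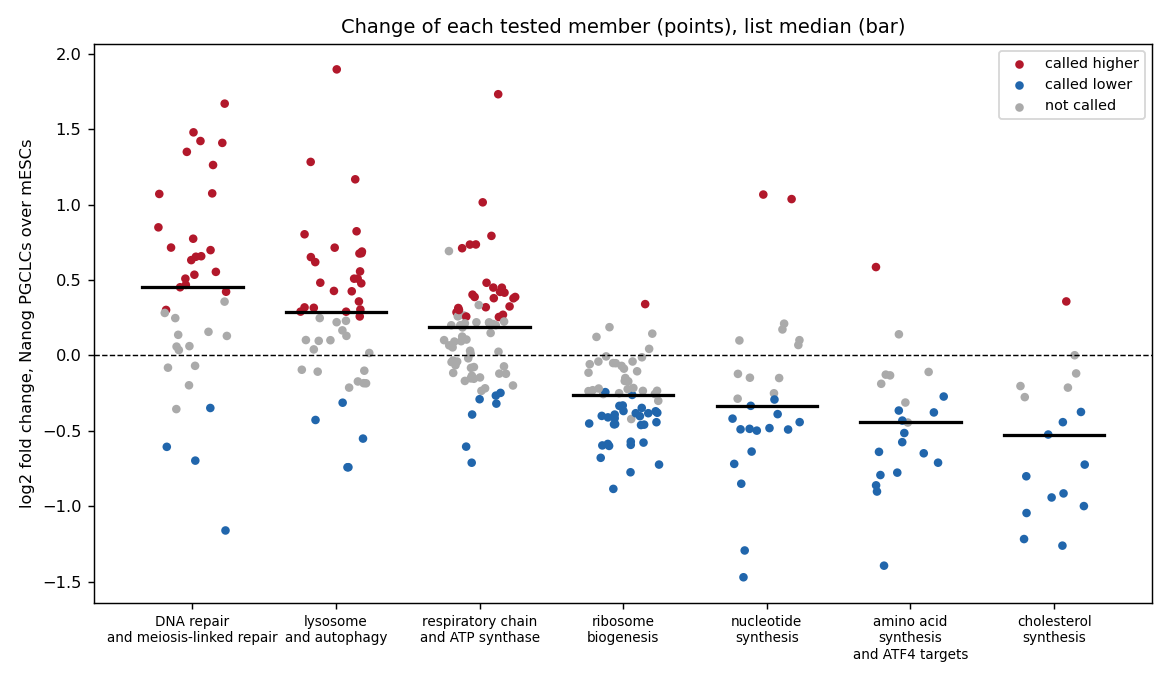
Log2 fold change, Nanog PGCLCs over mESCs, of every tested member (points, coloured by call) of 7 gene lists, with each list's median (bar) and the median of all genes (dashed). Repair, lysosome and respiratory genes lie mostly above the dashed line, and ribosome biogenesis, nucleotide, amino acid and cholesterol genes mostly below it.

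Lysosomal genes went the other way. Of 47 tested lysosome and autophagy genes 25 were higher and 5 lower (24 and 5 of the 46 detected on all 4 arrays; 30 and 3 under median scaling; 16 and 4 without Nanog PGCLC replicate 1), with a median of 0.29. Hexa, which breaks down gangliosides, had 9.29 and 9.24 in Nanog PGCLCs, against 7.29 and 7.45 in mESCs (1.90 ± 0.10, adjusted p = 2.74e-06). The sialidase Neu1 had 8.70 and 9.10 in Nanog PGCLCs, against 7.55 and 7.68 in mESCs (1.28 ± 0.14), and the protease legumain, Lgmn, rose by 1.17 and the saposin precursor Psap by 0.82. The autophagy gene Atg16l1 and the proton pump subunit Atp6v0e fell by 0.74 and 0.55. The lysosomal regulator TFEB is known to bind an extended form of the E-box CACGTG. The E-box is found in a promoter window of 33.3% of the 36 tested lysosome genes with one, and of 12.8% of all tested genes with one. Among the lysosome genes it is found in 38.1% of the 21 called higher and in 33.3% of the 3 called lower. Binding was not measured here, Tfeb had no named probe, and a part of TFEB in these changes was not tested. Of 75 tested genes of the respiratory chain and ATP synthase 24 were higher and 7 lower (28 and 3 under median scaling), with a median of 0.19. The share called higher, 32.0%, was near that of all tested genes, and the share called lower, 9.33%, was below it. Of the 71 members detected on all 4 arrays 22 were higher and 7 lower, against 23.9% and 28.0% of all such genes. Under median scaling the list median lay 0.013 above that of all genes. The count of higher members was 13 without mESC replicate 2, 14 without Nanog PGCLC replicate 1 and 16 without Nanog PGCLC replicate 2, and the counts of lower members there were 4, 4 and 2. Complex I subunit Ndufb2 was at least 2.63-fold higher, Cox6b2, a testis-type subunit of complex IV, had 10.03 and 9.87 in Nanog PGCLCs, against 8.93 and 8.94 in mESCs (1.02 ± 0.11), and Ndufa13 rose by 0.79. Of 70 tested mitochondrial ribosomal proteins 23 were lower (32.9%) and 9 higher (12.9%), against 27.0% and 29.1% of all tested genes. Their median was -0.15, but 0.02 under median scaling, with 9 lower and 13 higher. Of 25 tested glycolysis and hypoxia genes 11 were higher and 3 lower (13 and 3 under median scaling). Among the 19 detected on all 4 arrays 6 were higher and 2 lower, against 23.9% and 28.0% of all such genes. Pdk1, a kinase of pyruvate dehydrogenase, had 10.19 and 10.14 in Nanog PGCLCs, against 8.19 and 8.41 in mESCs (1.86 ± 0.10). The angiogenic factor Vegfa was at least 1.98-fold higher, while Ndrg1 was at least 1.35-fold lower.

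**Figure D4:**
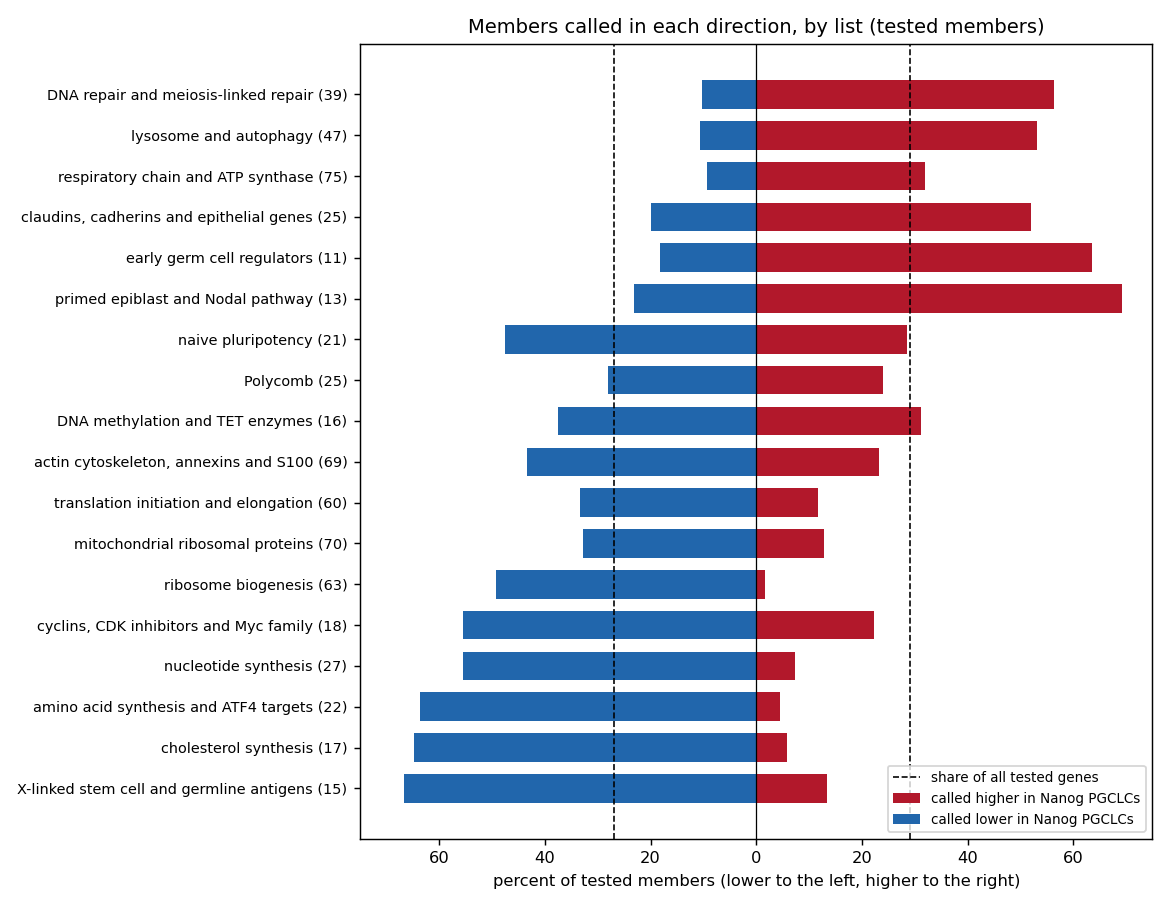
Percent of the tested members of 18 gene lists called higher (to the right, red) or lower (to the left, blue) in Nanog PGCLCs than in mESCs, with the number tested in brackets and the shares of all tested genes dashed (29.1% higher, 27.0% lower). Members that entered through 1 group alone are included, and the text gives counts for genes detected on all 4 arrays for some of the lists only.

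Of 18 tested cyclins, CDK inhibitors and Myc genes 10 were lower and 4 higher after quantile normalization (5 and 6 under median scaling). Of 50 tested DNA replication genes 12 were higher (24%) and 7 lower (14%), against 29.1% and 27.0% of all tested genes. Under median scaling 15 replication genes were higher and 1 lower. Ccnd1 had 9.18 and 9.03 in Nanog PGCLCs, against 11.28 and 11.41 in mESCs on its brightest probe (-2.24 ± 0.10, adjusted p = 1.27e-06), with -2.40 and -3.34 on the others. The CDK inhibitor Cdkn1a fell by 0.86 and Mycl, of the Myc family, by 1.01, while Rb1, the retinoblastoma protein, was higher by 1.20 ± 0.18, with 1 of 2 mESC arrays detecting it. Of 28 tested p53 targets and apoptosis genes 5 were higher (17.9%) and 9 lower (32.1%), against the same shares of all tested genes. Under median scaling 9 of them were higher and 6 lower. Bcl2l11, or Bim, a killer protein that ERK is known to restrain, had 9.03 and 9.04 in Nanog PGCLCs, against 6.63 and 6.73 in mESCs, at least 3.81-fold higher (adjusted p = 1.21e-06), and Bik, of the same class, was at least 2.29-fold higher. The p53 targets Phlda3 and Mdm2 fell by 1.12 and 0.46.

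Few markers of other cell types could be scored. No named probe read the defining markers Mixl1, Eomes, Mesp1, Gata4, Gata6, Sox17, Foxa2, Col1a1 or Pdgfra. Their levels are unknown here, as is that of Prdm1. Gene names covered only the 11542 probes of the authors' value table, of 45281 on the array. A marker without a named probe may therefore have a probe on the array that carries no name here. Cdx2, Hba-x and Hbb-bh1 were detected on 0 Nanog PGCLC and 0 mESC arrays and on 2 cytokine PGCLC arrays. The summed linear intensity of the tested endoderm markers was 1574 and 1346 in Nanog PGCLCs, against 3069 and 3183 in mESCs, with 0 of 6 higher and 5 lower, among them Sparc, the apolipoprotein Apoa2 (-0.84) and the laminins Lamc1 and Lama1; the call for Sox7 (-0.26) held under 4 of 16 alternatives and its sign turned under median scaling (0.019). Fibroblast markers summed to 782 and 744 in Nanog PGCLCs, against 1527 and 1496 in mESCs, with 3 of 4 lower. Streak and mesoderm markers summed to 4734 and 4137 in Nanog PGCLCs, against 3117 and 2856 in mESCs, a sum that the Nodal inhibitor Lefty2 dominates, while Gsc and Evx1, factors of the primitive streak, were at least 1.93-fold lower and lower by 1.52 ± 0.09 (log2 fold change -1.52). Neural markers summed to 675 and 607 in Nanog PGCLCs, against 812 and 856 in mESCs, and trophoblast markers to 1243 and 1170 in Nanog PGCLCs, against 1240 and 1162 in mESCs. Endothelial and blood markers summed to 446 and 482 in Nanog PGCLCs, against 681 and 631 in mESCs, with 1 of 3 higher, Pecam1, and 1 lower. Detected on all 4 arrays were 5 of 6 endoderm and 3 of 4 streak and mesoderm markers. The same held for 0 of 5 neural, 1 of 5 trophoblast, 1 of 4 fibroblast and 1 of 3 endothelial and blood markers. Their sums therefore include signal from arrays that did not detect the gene. The part of other cell types in the results above was not tested.

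Where the Nanog PGCLCs differed from cytokine PGCLCs was tested in the same fit. Of the 6403 genes, 762 were higher (11.9%) and 635 lower (9.92%) in Nanog than in cytokine PGCLCs. Genes entered the fit through detection in Nanog PGCLCs or mESCs, so a gene detected in cytokine PGCLCs alone was not tested and could not count as lower. Of the 11 early germ cell regulators 7 were lower and 1 higher in Nanog than in cytokine PGCLCs: Dnd1 by -0.997, Lin28a by -0.88, Nanos3 by -0.83, Kit by -0.69, Nr5a2 by -0.67 and Tfap2c by -0.32 on the log2 scale, with Sall4, chosen after its values were seen, at -0.40, while Tcl1, a coactivator of AKT, was higher by 0.49. Nanos3 thus stood at 8.90 and 9.02 in Nanog PGCLCs, at 9.75 and 9.82 in cytokine PGCLCs and at 7.06 and 6.96 in mESCs. Of 13 primed and Nodal genes 6 were higher and 0 lower, but 6 of the 13 had entered through Nanog PGCLCs and not mESCs. Lefty1 stood at 12.05 and 12.02 in Nanog PGCLCs, at 9.86 and 9.84 in cytokine PGCLCs and at 9.79 and 9.83 in mESCs (difference of Nanog from cytokine PGCLCs 2.19, adjusted p = 9.99e-06). Its level in cytokine PGCLCs was near that in mESCs, and in Nanog PGCLCs it was far above both. Of 25 epithelial genes, 10 of which had entered in that way, 9 were higher and 2 lower, with Cldn6 at 9.46 and 9.19 in Nanog PGCLCs, at 7.27 and 7.71 in cytokine PGCLCs and at 6.22 and 5.92 in mESCs. Hmgn5 was higher by 1.22, with 10.52 and 10.58 in cytokine PGCLCs.

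Other lists differed mostly in one direction. Of 69 actin, annexin and S100 genes 23 were higher and 3 lower in Nanog than in cytokine PGCLCs, and of 47 glutathione and oxidative stress genes 15 were higher and 2 lower, with the carbonyl reductase Cbr3 at 7.59 and 7.23 in Nanog PGCLCs, at 5.61 and 5.78 in cytokine PGCLCs, which did not detect it, and at 8.62 and 8.54 in mESCs. Of 47 histone methylation enzymes 1 was higher and 14 were lower, and of 27 matrix and integrin genes 3 were higher and 11 lower, with Sparc lower by 1.63 (difference -1.63). Single genes also stood apart. H2-Bl, a non-classical class I gene, had 9.15 and 8.94 in Nanog PGCLCs, 6.98 and 6.82 in cytokine PGCLCs and 6.49 and 6.52 in mESCs. Xlr4a had 8.93 and 9.08 in Nanog PGCLCs, 10.78 and 10.81 in cytokine PGCLCs and 11.03 and 11.07 in mESCs. Axin2 had 6.15 and 6.03 in Nanog PGCLCs, where it was undetected, 8.60 and 8.61 in cytokine PGCLCs and 7.61 and 7.85 in mESCs. Mycl was lower in Nanog than in cytokine PGCLCs by -2.04, Evx1 by -1.82 and Spic, a transcription factor of naive stem cells, by -1.75 (log2 differences), and Axin2, Mycl and Evx1 were brighter in cytokine PGCLCs than in mESCs on both arrays.

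**Figure D5:**
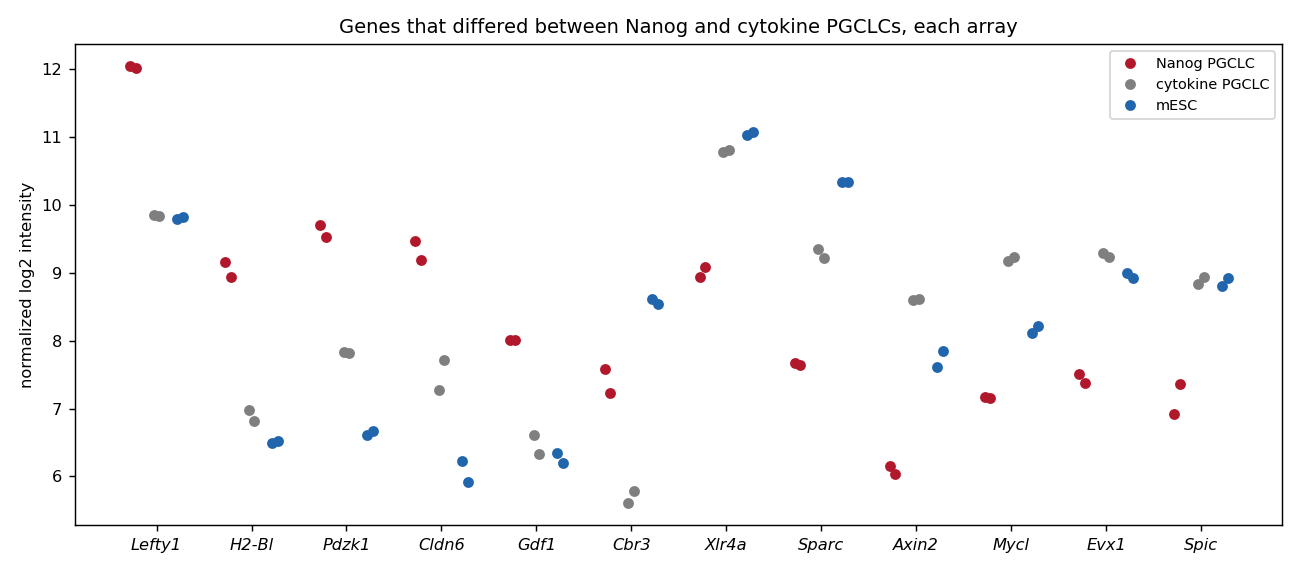
Normalized log2 intensity of 12 genes on each array, with Nanog PGCLCs in red, cytokine PGCLCs in grey and mESCs in blue, 2 arrays each; the genes were picked for their difference between the PGCLC groups. Lefty1, H2-Bl, Pdzk1, Cldn6 and Gdf1 are highest in Nanog PGCLCs, and Xlr4a, Sparc, Axin2, Mycl, Evx1 and Spic are lowest there.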

How the data were processed

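RNA from 6 samples was read on Illumina mouse BeadChips, 2 arrays a group. The deposited table gives, per the file headers, the probe intensity and its detection p-value on each array, not background corrected and not normalized. A deposited value table on the log2 scale holds the authors' quantile-normalized values, for which limma is named without a version per the submitters' processing notes, and it served as an alternative. Intensities were background corrected by normexp with negative controls inferred from the detection p (936 implied), offset by 16, quantile normalized and put on the log2 scale (R 4.3.3, limma 3.58.1). One model of the 3 groups was fitted to 9932 probes, 1251 of them unnamed here, with two-sided tests and Benjamini-Hochberg adjustment over all of them. A gene is read by its brightest named probe. Gene names come from the platform annotation and cover the 11542 probes of the authors' value table, not all 45281 on the array. Of those 11542 probes 10057 carry 1 symbol, 4 several and 1481 none, and 10050 matched RefSeq. Promoters are RefSeq windows. The members, the 62 gene lists and the naming rule (the largest called changes, the listed members with the smallest adjusted p and a panel of known regulators) were chosen with earlier results of these data known. The labels number replicates without saying that a number pairs arrays, and the deviations of like-numbered Nanog PGCLC and mESC arrays correlated at r = 0.115 over 2 pairs. The fit was tested on simulated data.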

Additional observations from a re-analysis of the deposited data

Results flagged for a closer look

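Probes with no gene name entered the fit but no comparison of genes, and some were detected in Nanog PGCLCs and not in mESCs. Of 1251 such probes tested, 338 were called higher and 292 lower than in mESCs, and 112 of those higher were detected on both Nanog PGCLC arrays and on neither mESC array. Over these 112 probes the median bound was at least 1.23-fold, and the highest was at least 6.48-fold.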

How the results depend on the processing

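Across 16 alternatives, between 1309 and 2690 genes were called higher and between 835 and 1860 lower; quantile normalization holds the arrays to a shared distribution, and with median scaling 2690 genes were higher and 835 lower (701 and 143 by 2-fold or more). Counts past 2-fold were 107 higher and 57 lower with no background correction, 105 and 65 in the authors' value table, and 185 and 150 among genes detected on all 4 arrays (1309 higher and 1549 lower at any size), which leaves fewer genes to test. Leaving out single arrays gave 1612 to 1655 higher and 1330 to 1519 lower genes, with 468 to 485 and 250 to 264 by 2-fold or more. With the replicate number as a block, 1864 genes were higher and 1727 lower. Of 411 named genes, 347 kept their call under every alternative that tested them (15 or 16), and 4 turned sign with a call in either setting. Other sign changes were of genes called in neither setting. Nanog was at 0.44 with the mean of its probes, and ranged from -0.36 to 1.18 when single arrays were left out, the positive values (1.10 and 1.18) coming where its other probe was the brighter. Zfp607a was at 0.49 with cyclic loess, 0.57 with median scaling, 0.12 in the authors' value table, and from -0.95 to 0.57 without single arrays (0.26 and 0.57 without mESC replicate 1 and 2). Sox7 was at 0.019 with median scaling. Sox11 was at -0.37 with detection on at least 1 of the 4 arrays and with no filter, and ranged from -0.33 (without Nanog PGCLC replicate 2) to 0.78 without single arrays. Zfp607a has 2 probes called opposite ways in the main fit (-0.89 and 0.41), and the second was the brighter when an mESC array was left out. For its other sign changes, and for Sox7 and Sox11, the cause was not tested.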

Other observations

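Of all tested genes 29.1% were higher and 27.0% lower (23.9% and 28.0% of those detected on all 4 arrays), and the shares of solute carriers and of glutathione genes lay near these. Of 141 tested Rab, Vps and sorting nexin genes 50 were higher (35.5%) and 27 lower in Nanog PGCLCs than in mESCs, and of the 118 detected on all 4 arrays 35 were higher and 24 lower (75 and 11 of all 141 under median scaling, where 2690 and 835 of all 6403 genes were). Rab27a, a GTPase of secretory vesicles, had 10.79 and 10.72 in Nanog PGCLCs, against 9.14 and 9.19 in mESCs (log2 fold change 1.59 ± 0.09, limma adjusted p = 3.50e-06). Stx7, a SNARE of late endosomes, had 9.92 and 9.84 in Nanog PGCLCs, against 8.16 and 8.02 in mESCs (1.79 ± 0.10). Rab38, a GTPase of melanosome traffic, was detected on neither Nanog PGCLC array and was at least 2.12-fold lower. Of 97 tested solute carriers 25 were higher (25.8%) and 32 lower (33.0%; 38 and 15 under median scaling), with 16 higher without Nanog PGCLC replicate 1. Slc40a1, the iron exporter ferroportin, was at least 2.50-fold higher. Slc6a8, the creatine transporter, had 7.94 and 7.95 in Nanog PGCLCs, against 10.29 and 10.21 in mESCs (-2.30 ± 0.14).

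Of 22 tested imprinted genes 8 were higher (36.4%) and 7 lower (31.8%), and of the 14 detected on all 4 arrays 4 were higher and 6 lower. Peg3, a paternally expressed zinc finger gene, had 9.59 and 9.59 in Nanog PGCLCs, against 8.01 and 7.94 in mESCs (1.61 ± 0.09, limma adjusted p = 3.09e-06). Ndn, a paternally expressed growth suppressor, had 9.21 and 9.27 in Nanog PGCLCs, against 7.82 and 7.98 in mESCs. Dio3, which inactivates thyroid hormone, was at least 1.69-fold lower. Of 8 tested cleavage stage and maternal effect genes 3 were higher and 4 lower. Crxos, a homeobox gene of early embryos, had 5.70 and 5.58 in Nanog PGCLCs, where neither array detected it, against 9.38 and 9.35 in mESCs, at least 5.57-fold lower (adjusted p = 3.90e-07).

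Of 47 tested glutathione and oxidative stress genes 14 were higher (29.8%) and 15 lower (31.9%) than in mESCs. Gstk1, a mitochondrial and peroxisomal glutathione transferase, was at least 3.76-fold higher, and Gpx2, a glutathione peroxidase, was at least 4.49-fold lower.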
